A study of Mus musculus with 12 samples.

Results

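The 10 genes described here encode contractile and energy proteins of fast skeletal muscle fibres: Acta1, Ckm, Myh1, Myh2, Myh4, Tnnt3, Tnni2, Mylpf, Atp2a1 and Pvalb. They were taken by symbol, 10 of 10 found among 47747 gene symbols, in bulk RNA libraries made from the meninges of 12 mice. All 12 mice were C57bl/6. In the DSS group, 6 mice drank 2% DSS for 5 days and then normal water; in the Control group, 6 mice carry the treatment label Control, and nothing further is said of what they drank. The cull is given as after 6 days, with no statement of the day it was counted from. DSS, dextran sulfate sodium, is a chemical used to inflame the colon of rodents. The labels name the meninges in the sample titles and the extraction protocol, but the colon as the source. Fibroblast genes (Col1a1, Col1a2, Col3a1, Dcn, Lum, Pdgfra) summed to 10600 to 20860 CPM in DSS libraries and 11550 to 18270 CPM in Control libraries, and 5 colon epithelium genes (Epcam, Vil1, Muc2, Cdx2, Lgals4) to 4.47 to 11.9 CPM in DSS libraries and 3.96 to 7.60 CPM in Control libraries. CPM are counts per 1000000 counts of a library, after trimmed mean of M values (TMM) scaling.

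A skeletal muscle fibre contracts when myosin heads in the thick filament pull on actin in the thin filament. Calcium released from the sarcoplasmic reticulum starts this by binding the troponin complex on the thin filament, and a calcium pump ends it by returning calcium to the reticulum. Fast fibres are sorted by the myosin heavy chain they make: Myh4 in type IIb, Myh1 in type IIx and Myh2 in type IIa fibres, with Myh7 in slow fibres. Meninges hold smooth muscle in their vessels but are not known for striated fibres; skeletal muscles of the head and neck attach to the outside of the skull. How the tissue was dissected beyond its storage in RNA preservative is not given in the labels.

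Libraries held 13078923 to 28544877 counts in DSS and 9312788 to 41869997 in Control. Ribosomal RNA features took 61.3% of the counts of Control replicate 2 and 1.13% to 10.5% of those of the other 11 libraries. Neutrophil genes, which mark inflammation, were higher in DSS for 8 of 8 listed genes (edgeR quasi-likelihood test, Benjamini-Hochberg adjusted p under 0.05). Of all 18593 tested genes, 3.68% were called higher in DSS. The list was chosen with earlier results of these data known. Its summed level was 241 to 1342 CPM in DSS and 61.1 to 186 CPM in Control, with DSS replicate 2 at 1256 CPM. The labels do not say whether mice shared a cage or a preparation day, and no batch is named.

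Muscle RNA was scarce in 11 libraries and plentiful in 1. The 10 genes summed to 3161 counts in DSS replicate 2, which was 0.0242% of its counts (exact 95% interval 0.0233% to 0.0250%). In the other 5 DSS libraries they summed to 104 to 229 counts, and in the 6 Control libraries to 113 to 1034 counts. As CPM the sum was 232 in DSS replicate 2, between 3.46 and 9.40 in the other 5 DSS libraries, and between 9.20 and 22.3 in the Control libraries. DSS replicate 2 thus lay 24.7-fold above the median of the other 11 libraries. The remaining libraries were almost parted by treatment, with DSS replicate 4 at 9.40 CPM just above Control replicate 6 at 9.20 CPM. The median sum was 6.25 CPM in all 6 DSS libraries and 16.2 CPM in the 6 Control libraries. With unscaled library totals Control replicate 2, the library rich in ribosomal RNA, stood at 6.74 CPM in place of 15.9 CPM, below DSS replicate 3 at 7.12 CPM and DSS replicate 4 at 11.1 CPM. In bulk tissue, fewer muscle fibres and less muscle RNA per fibre cannot be told apart.

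**Figure D1:**
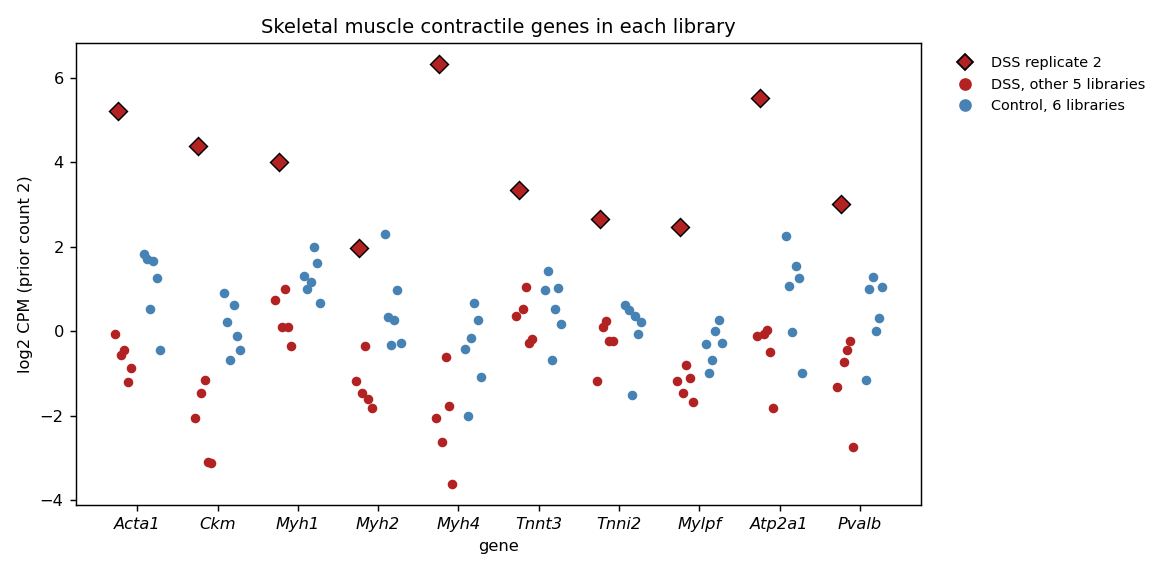
Level of each of the 10 genes in each library, as log2 CPM with a prior count of 2, DSS libraries (red) left of Control libraries (blue); each point is 1 mouse and the diamond is DSS replicate 2. DSS replicate 2 lies above the other 11 libraries for every gene except Myh2, where Control replicate 1 is higher, and most other DSS points lie low.

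DSS replicate 2 was the highest of the 12 libraries for 9 of the 10 genes; of all 18593 tested genes, 14.3% were highest in that library. It was at least 4-fold above the median of the other 11 libraries for 10 of 10, against 0.667% of all tested genes. The excess was unequal. It was 204-fold for Myh4, 50.7-fold for Atp2a1, 41.7-fold for Acta1 and 38.5-fold for Ckm. For the other 6 genes it ran between 5.31-fold (Myh2) and 11.0-fold (Mylpf). That 1 library held 88.6% of all Myh4 counts in the 12 libraries, 59.2% of the Ckm counts, 56.9% of the Atp2a1 counts and 53.7% of the Acta1 counts, but 11.9% of the Myh2 counts.

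Acta1, the skeletal form of actin in the thin filament (chromosome 8, 123891769 to 123894751, minus strand, GRCm38, the mm10 build), had 0.350 CPM in the lowest, 0.627 in the median and 36.7 in the highest DSS library, against 0.650, 2.71 and 3.45 CPM in Control. The highest DSS library was replicate 2; the other 5 reached at most 0.880 CPM, and 3 of them lay below every Control library. Control replicate 6, at 0.650 CPM, was the Control library that fell among the DSS values.

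The troponin genes of fast fibres varied least. Tnnt3, which encodes the troponin subunit that anchors the complex to tropomyosin (chromosome 7, 142498836 to 142516009), had 0.735, 1.28 and 10.1 CPM in the lowest, median and highest DSS libraries, against 0.539, 1.63 and 2.60 CPM in Control. Tnni2, the inhibitory subunit (chromosome 7, 142441808 to 142444410), had 0.360, 0.884 and 6.17 CPM in DSS and 0.270, 1.14 and 1.47 CPM in Control. For both genes the lowest of the 12 libraries was Control replicate 3, with 6 counts of Tnnt3 and 3 counts of Tnni2, and no DSS library lay below the Control range. Leaving out DSS replicate 2, the mean of the other 5 DSS libraries over that of the Control libraries was 0.774 for Tnnt3 and 0.769 for Tnni2, beside 0.165 for Ckm.

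Mylpf encodes the regulatory light chain of fast myosin (chromosome 7, 127208890 to 127214298). It had 0.233, 0.373 and 5.43 CPM in the lowest, median and highest DSS libraries, against 0.419, 0.741 and 1.12 CPM in Control. With DSS replicate 2 set aside, 4 of the other 5 DSS libraries lay below every Control library, on counts of 7 to 11 in those 4.

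Ckm, muscle creatine kinase, which rebuilds ATP from phosphocreatine (chromosome 7, 19404776 to 19422841), had 0.0333, 0.220 and 20.8 CPM in the lowest, median and highest DSS libraries, against 0.539, 0.965 and 1.79 CPM in Control. It parted the libraries cleanly once DSS replicate 2 was set aside, since the other 5 DSS libraries, with 1 to 9 counts, all lay below all 6 Control libraries. Its exons share 15.5% of their length with the antisense gene A930016O22Rik; the strand setting of the counting is not given in the sources used here, so reads of such pairs cannot be told apart.

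The 2 genes that clear calcium moved less alike. Atp2a1, the fast-fibre calcium pump SERCA1 (chromosome 7, 126445858 to 126463108, minus strand), had 0.200, 0.858 and 45.6 CPM in the lowest, median and highest DSS libraries, against 0.423, 2.17 and 4.68 CPM in Control. The groups overlapped: Control replicate 6 lay at 0.423 CPM and Control replicate 3 at 0.899 CPM, inside the range of the other DSS libraries. Rabep2, on the opposite strand, shares 21.9% of the Atp2a1 exons. Pvalb, parvalbumin, a calcium buffer of fast fibres that a class of inhibitory neurons also makes (chromosome 15, 78191114 to 78206400, minus strand), had 0.0665, 0.588 and 8.00 CPM in DSS and 0.367, 1.54 and 2.34 CPM in Control. Pvalb did not follow the order of the other genes. Control replicate 1 had the largest muscle sum among the Control libraries but the lowest Pvalb, at 17 counts, whereas Control replicate 6 had the smallest muscle sum and 61 counts of Pvalb.

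The 3 fast myosin heavy chain genes lie side by side on chromosome 11: Myh2 at 67171027 to 67197517, Myh1 at 67200052 to 67224575 and Myh4 at 67238029 to 67260446, all on the plus strand. Their coding sequences are close copies, with 90.2% of aligned bases identical between Myh4 and Myh1, 88.2% between Myh4 and Myh2 and 91.1% between Myh1 and Myh2. Of the 50-base windows of each transcript, 18.9% for Myh4, 26.7% for Myh1 and 26.9% for Myh2 also occur in a transcript of another gene, so a part of their reads could be shared or dropped, and how the authors counted such reads is not given in the sources used here. The following 60-base coding stretches, from GENCODE M21 transcripts, are shown because they are where the 3 genes differ most, at 25 of 60 aligned positions; capitals mark those positions.
Myh4: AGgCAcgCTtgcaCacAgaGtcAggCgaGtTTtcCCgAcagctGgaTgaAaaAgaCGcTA
Myh1: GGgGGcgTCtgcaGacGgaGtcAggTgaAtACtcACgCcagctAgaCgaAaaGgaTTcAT
Myh2: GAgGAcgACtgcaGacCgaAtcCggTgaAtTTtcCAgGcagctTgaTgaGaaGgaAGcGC

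Myosin make-up differed sharply between DSS replicate 2 and the rest. Myh4 had 1084 counts in DSS replicate 2, 0 to 14 counts in the other 5 DSS libraries, and 2 to 31 counts in Control. In DSS replicate 6 the count of 0 allows up to 0.0998 CPM, the level of 3 counts. As CPM, Myh4 had a lowest value of 0, a median of 0.185 and a highest of 79.6 in DSS, against 0.168, 0.739 and 1.50 in Control. Myh1 had 0.699, 1.30 and 15.9 CPM in the lowest, median and highest DSS libraries, against 1.50, 2.26 and 3.87 CPM in Control. Myh2 had 0.200, 0.320 and 3.82 CPM in DSS and 0.719, 1.14 and 4.87 CPM in Control. Myh2 was thus the gene for which a Control library, replicate 1 with 226 counts, exceeded DSS replicate 2 with 52 counts, and for which all 5 other DSS libraries lay below all 6 Control libraries.

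Among the counts of the 3 fast genes, the IIb gene Myh4 made up 80.2% in DSS replicate 2 (Wilson 95% interval 78.0% to 82.2%, 1352 counts). It made up 0% to 17.9% in the other 5 DSS libraries and 5.13% to 23.1% in Control. The IIx gene Myh1 led in all other DSS libraries, with 60.3% to 77.8%, and in 5 of the 6 Control libraries. Control replicate 1 was led by the IIa gene Myh2 at 61.6% of 367 counts. The 2 libraries with the most muscle counts therefore carried opposite myosin mixtures, one rich in IIb and the other in IIa. The intervals cover counting error only, and the libraries other than these 2 rest on 27 to 150 such counts.

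**Figure D2:**
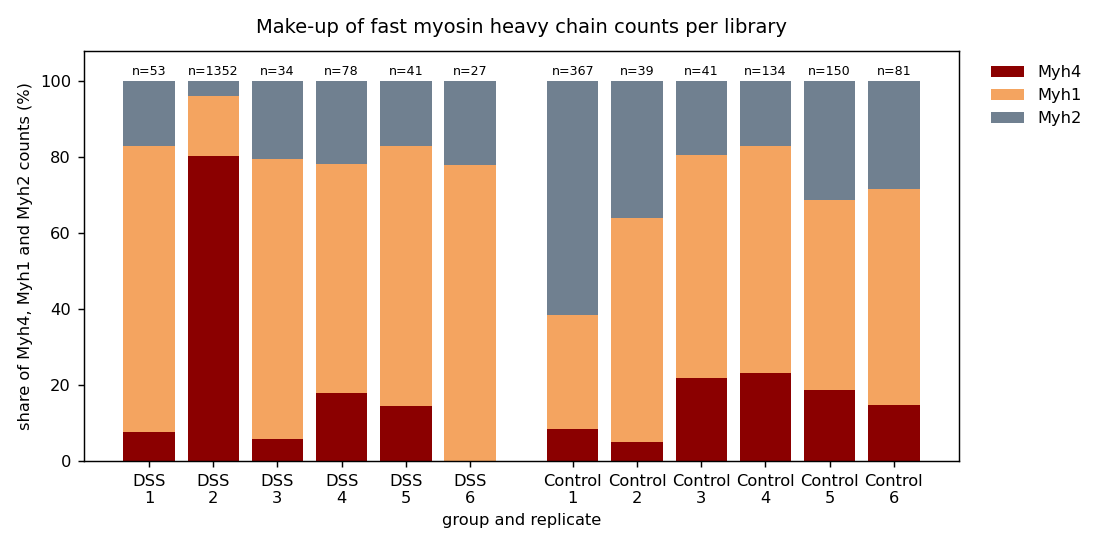
Share of the counts of Myh4, Myh1 and Myh2 in each library in percent, DSS libraries on the left and Control libraries on the right, with the number of counts above each bar. Myh4 fills 80.2% of the bar of DSS replicate 2, Myh2 fills 61.6% of that of Control replicate 1, and Myh1 is the largest part of the other 10.

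No myosin share passed the test between the treatments after adjustment for the 4 genes tested. With the slow gene Myh7 added to the denominator, Myh2 averaged 12.3% ± 6.54 in DSS and 27.2% ± 15.6 in Control (SD, n = 6 each). The difference was -14.96 percentage points, with a two-sided exact permutation p of 0.0368 and an adjusted p of 0.147. Myh4 averaged 19.1% ± 29.7 in DSS and 12.2% ± 5.56 in Control, Myh1 43.6% ± 18.9 in DSS and 42.1% ± 8.56 in Control, and Myh7 25.0% ± 24.2 in DSS and 18.5% ± 11.6 in Control; the adjusted exact permutation p was 0.905 for each of these 3. Pooling the counts of a group instead gives Myh4 64.5% in DSS and 11.6% in Control, with 1084 of the DSS counts of Myh4 from replicate 2.

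The stretch upstream of each start site is shown for the actin gene and the 3 myosin genes because these had unequal excesses in DSS replicate 2, from 5.31-fold for Myh2 to 204-fold for Myh4. Each run gives the 250 bases before the start site in RefSeq, build GRCm38.p6, 5′ to 3′ on the gene's strand: Acta1 at chr8:123894776-123895025, minus strand; Myh4 at chr11:67237562-67237811, plus strand; Myh1 at chr11:67199852-67200101, plus strand; Myh2 at chr11:67170777-67171026, plus strand. Capitals mark CAGCTG (an E-box form bound by MyoD), TATAAA, the CArG box bound by serum response factor and the MEF2 site, on either strand.
Acta1: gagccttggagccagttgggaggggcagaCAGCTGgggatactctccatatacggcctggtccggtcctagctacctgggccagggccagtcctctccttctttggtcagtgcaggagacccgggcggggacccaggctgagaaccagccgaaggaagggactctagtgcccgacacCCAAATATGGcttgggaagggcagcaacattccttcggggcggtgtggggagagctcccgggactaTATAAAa
Myh4: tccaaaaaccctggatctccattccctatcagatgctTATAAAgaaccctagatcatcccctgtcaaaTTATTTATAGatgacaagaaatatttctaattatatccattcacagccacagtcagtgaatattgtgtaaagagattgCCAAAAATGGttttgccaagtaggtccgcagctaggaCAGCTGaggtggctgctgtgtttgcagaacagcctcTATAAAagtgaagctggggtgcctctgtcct
Myh1: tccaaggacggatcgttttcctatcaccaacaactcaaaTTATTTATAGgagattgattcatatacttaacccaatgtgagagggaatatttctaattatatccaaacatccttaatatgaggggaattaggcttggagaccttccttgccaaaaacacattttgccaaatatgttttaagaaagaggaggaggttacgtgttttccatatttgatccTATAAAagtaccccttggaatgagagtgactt
Myh2: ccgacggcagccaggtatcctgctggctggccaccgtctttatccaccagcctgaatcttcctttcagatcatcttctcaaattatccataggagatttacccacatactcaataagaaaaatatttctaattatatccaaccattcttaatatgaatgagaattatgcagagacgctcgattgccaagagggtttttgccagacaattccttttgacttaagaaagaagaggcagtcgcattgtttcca

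The Acta1 stretch holds a CArG box beginning 73 bases before the start site and a CAGCTG at -221. The Myh4 stretch holds a CArG box at -104, a CAGCTG at -67 and a MEF2 site at -182. Myh1 holds a MEF2 site at -211 and no CAGCTG or CArG box, and the Myh2 stretch holds none of these 4 motifs. A TATAAA on the opposite strand overlaps the MEF2 site in Myh1 and in Myh4. Of the 8 genes with an entry, 5 hold CAGCTG, 3 TATAAA, 2 a CArG box and 3 a MEF2 site in 1 of their start sites. Of all 32851 stretches of that length, 4271 hold CAGCTG, 12.4% TATAAA, 1.47% a CArG box and 2.92% a MEF2 site. A match describes letters in these windows, not a site in use.

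Levels of different genes can be ranked only per length, as CPM per kilobase of exon. In DSS replicate 2 the order was Acta1 at 23.9, Myh4 at 13.2, Atp2a1 at 13.1, Pvalb at 7.69, Ckm at 7.13, Tnnt3 at 6.40, Mylpf at 5.12, Tnni2 at 4.12, Myh1 at 2.50 and Myh2 at 0.535. In the other 5 DSS libraries the medians ran from 0.758 for Tnnt3 down to 0.0266 for Myh4, and in Control from 1.76 for Acta1 down to 0.123 for Myh4. Myh4 was therefore second of the 10 in DSS replicate 2 and last in both other sets. Within Control, the ranges of neighbours in the order overlapped throughout: Acta1 spanned 0.423 to 2.25, Pvalb 0.352 to 2.25 and Tnnt3 0.341 to 1.64 CPM per kilobase.

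Other genes of the fibre were read from lists of muscle genes. Of 10 further fast-fibre genes, 8 were at least 4-fold above the median of the other 11 libraries in DSS replicate 2, and 9 were highest there. Among all 18593 tested genes these shares were 0.667% and 14.3%. Tnnc2, Myoz1, Mylk2, Myom2 and Mylk4 did not pass the filter on low counts, so those shares do not cover them. The counts given below for the other muscle lists also include genes that did not pass it. Mybpc2, fast myosin-binding protein C, had 5.87 CPM in DSS replicate 2, 0.280 to 0.698 CPM in the other DSS libraries and 0.325 to 1.006 CPM in Control. Myl1, the fast essential light chain, had 4.48 CPM in DSS replicate 2, 0.287 to 0.558 CPM in the other DSS libraries and 0.160 to 0.871 CPM in Control. The exceptions were Actn3 at 1.55-fold and Tmod4 at 1.83-fold, with 146 to 550 counts of Actn3 in every library.

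Of 18 common sarcomere genes, 5 were counted as at least 4-fold higher in DSS replicate 2. Myot and Lmod2 had no ratio, since the median of the other libraries was 0, and had 12 and 4 counts in DSS replicate 2. Ttn, the giant spring protein titin, had 237 CPM there, 3.33 to 7.55 CPM in the other DSS libraries and 9.80 to 29.8 CPM in Control. Neb, nebulin, the ruler of the thin filament, had 25.0 CPM there, 0.520 to 1.15 CPM in the other DSS libraries and 0.989 to 3.73 CPM in Control. Tpm2 and Myom1 did not share this, at 0.837-fold and 0.991-fold of the other libraries' median. Of 12 calcium coupling genes, 2 were at least 4-fold higher in DSS replicate 2. Ryr1, the calcium release channel, had 18.9 CPM in DSS replicate 2, 0.832 to 1.58 CPM in the other DSS libraries and 2.03 to 4.28 CPM in Control. Jph2 stood at 1.03-fold, Cacnb1 at 1.30-fold and Srl at 1.34-fold of the other libraries' median. Of 17 muscle energy genes 3 were counted as at least 4-fold higher, while Pygm, muscle glycogen phosphorylase, stood at 1.13-fold and Pfkm at 0.921-fold. Ampd1, with 7 counts in DSS replicate 2, had no ratio for the same reason as Myot.

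Slow-fibre genes shared little of the excess: 0 of 10 were counted as at least 4-fold higher in DSS replicate 2, and 2 as at least 2-fold. Myoz2 and Sln, with 3 and 0 counts in DSS replicate 2, had no ratio, since the median of the other libraries was 0. The summed CPM of the 10 slow-fibre genes in DSS replicate 2 was 1.4-fold the median of the other libraries, the highest of the 12. In DSS replicate 2, Myh7 at 2.26-fold, Mybpc1 at 1.85-fold and Casq2 at 1.34-fold each ranked 2 of the 12 libraries. Tnnt1, slow troponin T, was the lowest of the 12 libraries there, at 1.47 CPM, with 1.76 to 2.67 CPM in the other DSS libraries and 1.93 to 2.64 CPM in Control. Tissues that adjoin muscle were not raised as summed lists. In DSS replicate 2 the summed CPM over the median of the other libraries was 0.585 for tendon genes and 0.512 for bone genes. Fmod at 538 CPM and Comp at 254 CPM made up most of the tendon sum of 823 CPM. The sum therefore says little of the other tendon genes. Of these, Scx stood at 1.07-fold, Thbs4 at 1.13-fold, Tnmd at 0.744-fold and Mkx at 0.849-fold. The summed ratio was 0.902 for smooth muscle genes (Acta2, Myh11, Des and 7 others) and 0.711 for fibroblast genes. For all 4 lists this sum was the lowest of the 12 libraries. Des alone was the highest of the 12 there, at 14.4 CPM. It had 9.3 to 9.5 CPM in the other DSS libraries and 8.4 to 10.8 CPM in Control.

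**Figure D3:**
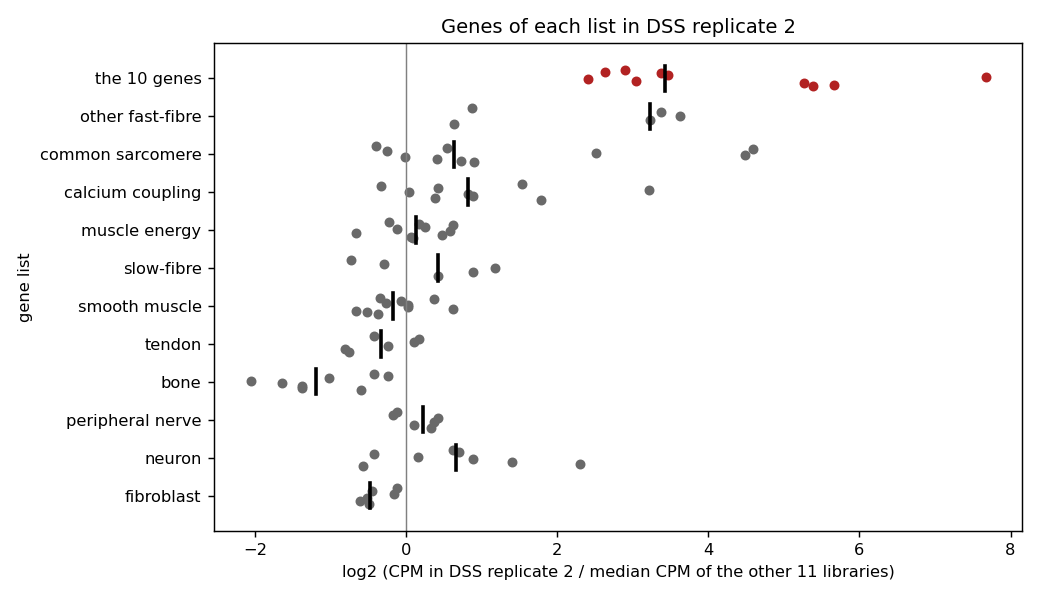
Level of each tested gene in DSS replicate 2 over the median of the other 11 libraries, on a log2 scale, by gene list; each point is 1 gene and each bar the list's median. The 10 genes lie between 5.31-fold and 204-fold, with Mybpc2, Myl1, Casq1, Ttn, Neb and Ryr1 beside them, while slow-fibre genes reach at most 2.26-fold and bone genes lie below the line at 0.

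Genes of muscle formation were read beside them. Myod1, the master regulator of the muscle lineage, had 0 to 2 counts in every library, and Pax7, the marker of satellite cells, 0 to 4 counts. Myog, myogenin, had 41 counts in DSS replicate 2, 62 to 149 counts in the other DSS libraries and 28 to 137 counts in Control, and so did not move with the contractile genes. The neonatal gene Myh8 had 19 counts in DSS replicate 2, 0 to 3 counts in the other DSS libraries and 2 to 14 counts in Control. The embryonic gene Myh3 had 0 to 3 counts in every library. Of 11 tested atrophy genes, among them Foxo1, Foxo3, Sesn1 and Ctsl, 0 were called in either direction (edgeR), with or without DSS replicate 2. Of all genes tested, 4.94% were called with that library and 7.33% without it.

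The slow myosin gene Myh7 and the muscle cytochrome oxidase gene Cox8b were low in the libraries low in a choroid plexus gene. Cox8b was chosen after its values were seen. Kl, the klotho gene of the choroid plexus, the tissue that makes cerebrospinal fluid, was low in 4 libraries: 10.3 CPM in DSS replicate 3, 3.28 in DSS replicate 4, 4.36 in Control replicate 2 and 3.40 in Control replicate 5. In the other 8 it was 46.5 to 145 CPM. Myh7 had 2, 4, 7 and 1 counts in those 4 libraries, in the same order, and 14 to 64 counts in the others. Cox8b had 10, 6, 5 and 12 counts in the 4, and 15 to 81 counts in the others. The part played by choroid plexus RNA in the Myh7 counts was not tested, and the Myh7 share above includes these counts.

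**Figure D4:**
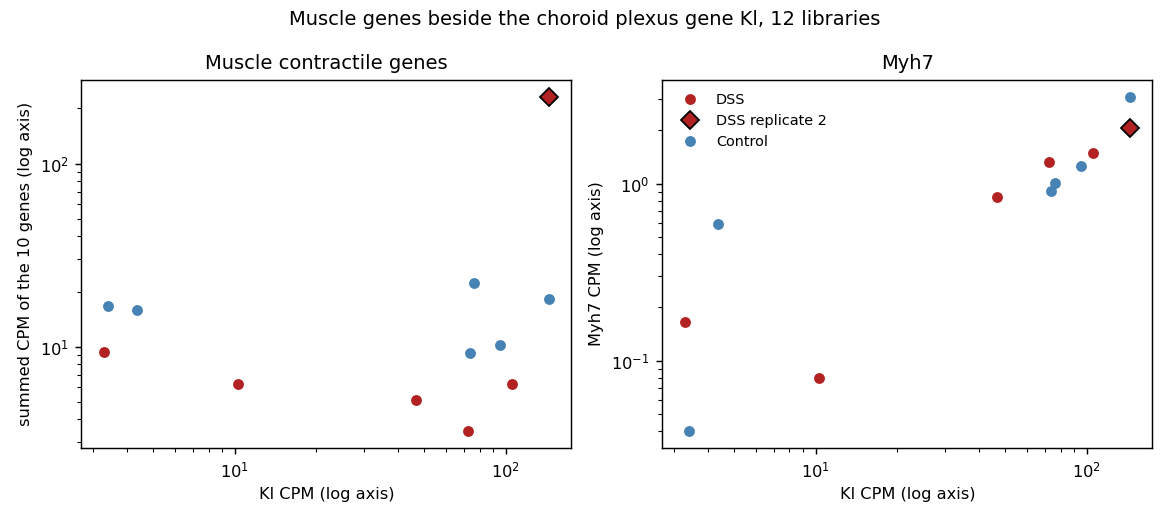
Summed CPM of the 10 genes (left) and Myh7 CPM (right) against the CPM of Kl, with log axes; each point is 1 library, DSS in red, Control in blue, DSS replicate 2 as a diamond. Myh7 is low in the 4 libraries where Kl is 10.3 CPM or less, whereas the 10 genes are not.

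Some heart muscle genes were highest in Control replicate 2, 6 of the 9 on the cardiac list, while Ryr2 peaked in DSS replicate 3 and Nppa and Nppb, at 7 and 3 counts, in Control replicate 1. The share of all tested genes that were highest in Control replicate 2 was not computed, so the 6 of 9 cannot be set against it. Among the 6, Actc1, Tnnt2, Myl7 and Mybpc3 did not pass the filter on low counts. Tnni3 was among the 6 by little, reaching 2.71 CPM in DSS and 2.85 CPM in Control replicate 2. The genes given here were chosen after their values were seen. Control replicate 2 had 83 counts of Myh6, the atrial myosin heavy chain, where the other 5 Control libraries had 0 to 19 and the DSS libraries 0 to 6. It also had 46 counts of Myl7 and 27 of Actc1, the cardiac actin, where no other library exceeded 3 counts of Myl7 or 5 counts of Actc1. This was the library with 61.3% ribosomal RNA counts. Its level of the 10 genes, 15.9 CPM, lay within the range of the other Control libraries, and its Ttn, a gene of heart as well as skeletal muscle, was 29.4 CPM.

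DSS was compared with Control for every gene that passed a filter on low counts, by edgeR's quasi-likelihood test on the 12 libraries. All 10 genes passed the filter, and 0 of 10 were called at an adjusted p under 0.05, beside 4.94% of all 18593 tested genes; 3.68% were called higher in DSS and 1.26% lower. In none of the 10 did all 6 DSS libraries lie above all 6 Control libraries, which held for 2.23% of tested genes, or below them, which held for 0.823%. At an unadjusted p under 0.05 there was 1, Myh4, beside 19% of all tested genes. The log2 fold change of DSS over Control was 4.03 for Myh4 (SE 1.60, adjusted p 0.175), 1.78 for Atp2a1 (SE 1.14, adjusted p 0.441), 1.63 for Ckm (SE 1.21, adjusted p 0.525) and 1.42 for Acta1 (SE 1.08, adjusted p 0.536). For Tnnt3, Tnni2, Myh1, Mylpf and Pvalb it lay between 0.18 and 0.71. Myh2 alone was below 0, at -1.13 (SE 0.73, adjusted p 0.446). The median over the 10 genes was 0.64 and that over all tested genes -0.02.

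The positive values turned negative once DSS replicate 2 was left out. The mean was higher in DSS for 9 of the 10 genes, but the median was lower in DSS for 10 of 10, at 0.228 (Ckm) to 0.786 (Tnnt3) of the Control median. Fitted without DSS replicate 2, on 5 DSS and 6 Control libraries, all 10 log2 fold changes were below 0, beside 53.2% of the 18815 genes then tested, and 4 of 10 genes were called, all lower, beside 7.33% called either way and 2.07% called lower. None of the 10 was called higher, beside 5.26% of the genes tested. This library was set aside with its values already known, so the second fit describes the other 11 libraries and does not replace the first. With all 12 libraries kept, limma-voom with library quality weights placed 10 of 10 genes below 0 and called 0 of them (weight of DSS replicate 2 0.620, the lowest of the 12).

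In the edgeR fit without DSS replicate 2, Ckm changed most of the 10 genes: the DSS level was 0.160 of that in Control, or -2.64 on the log2 scale (SE 0.52, adjusted p 0.00825). Myh2 followed at -2.36 (SE 0.55, adjusted p 0.0200), then Acta1 at -1.98 (SE 0.41, adjusted p 0.0102) and Mylpf at -1.12 (SE 0.30, adjusted p 0.0365). Myh4 at -1.94 (adjusted p 0.0966), Atp2a1 at -1.69 (adjusted p 0.0757), Pvalb at -1.57 (adjusted p 0.0964) and Myh1 at -0.99 (adjusted p 0.0631) did not pass the threshold. Tnnt3 at -0.37 (adjusted p 0.610) and Tnni2 at -0.40 (adjusted p 0.567) differed by about their SE of 0.35. For Ckm and Myh2 all 5 DSS libraries lay below all 6 Control libraries, which held for 1.81% of the genes tested in all 12 libraries. With Control replicate 1 left out as well, Mylpf lost its call (adjusted p 0.0519) and Pvalb gained one (log2 fold change -1.80, adjusted p 0.0346), while Ckm, Myh2 (log2 fold change -1.68) and Acta1 were called.

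**Figure D5:**
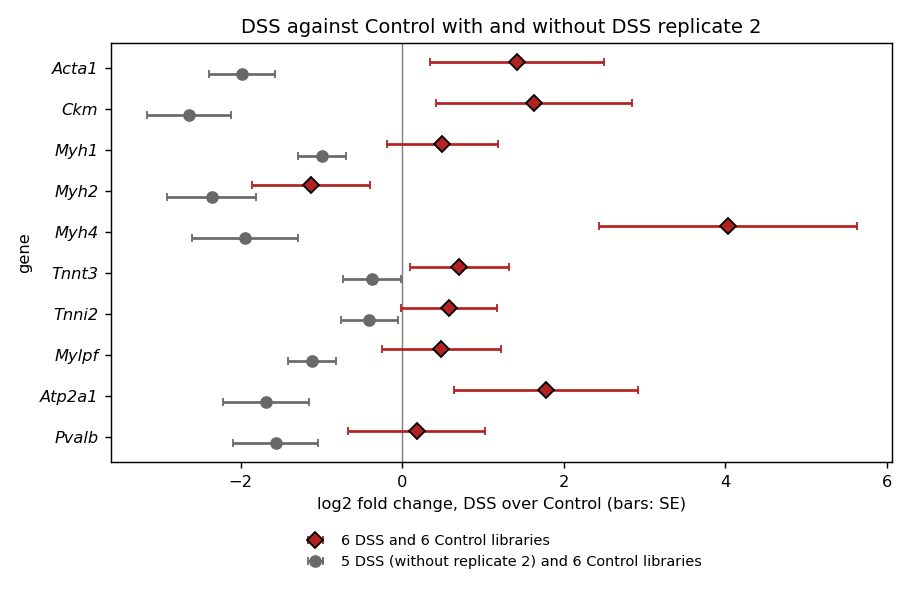
Log2 fold change of DSS over Control for each gene with its standard error, from all 12 libraries (red diamonds) and without DSS replicate 2 (grey circles). Without that library all 10 values lie below 0, from -0.37 for Tnnt3 to -2.64 for Ckm.

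Other muscle lists were read in both fits. With all 12 libraries, edgeR called 0 of 5 tested further fast-fibre genes, 0 of 5 slow-fibre genes and 0 of 10 common sarcomere genes. It also called 0 of 9 calcium coupling genes, 0 of 10 muscle energy genes and 0 of 10 smooth muscle genes. Of all tested genes 4.94% were called, so 0 in lists of this size cannot be set apart from that share. Without DSS replicate 2, Ttn was lower at a log2 fold change of -1.87 (adjusted p 0.00349), Neb at -1.40 (adjusted p 0.0369) and Ryr1 at -1.22 (adjusted p 0.00490). Of all genes tested in that fit, 7.33% were called either way and 2.07% called lower. The fast-fibre, slow-fibre, energy and smooth muscle lists again held 0 called genes, which lists of this size cannot set apart from that share. In that fit Pygm was at a log2 fold change of -0.19, Pfkm at -0.30, Tpm2 at -0.13 and Actn3 at 0.07, none of them called.

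Some brain genes were also lower in DSS once DSS replicate 2 was left out. Without DSS replicate 2, 3 of 8 neuron genes were called lower in DSS by edgeR, beside 2.07% of the 18815 genes tested. They were Nefl, a neurofilament, at a log2 fold change of -4.08 (adjusted p 0.00252), Gad1, the enzyme that makes GABA, at -3.16 (adjusted p 0.0105), and Stmn2 at -0.54 (adjusted p 0.0377). Nefl and Gad1 were chosen for naming after their values were seen. Snap25 and Eno2, the neuron genes of highest mean CPM, were at -0.55 and -0.49 in that fit and were not called (edgeR adjusted p 0.0740 and 0.114). Of 4 tested glial genes, Slc1a2, the glutamate transporter of astrocytes, was called lower at -0.75 (adjusted p 0.0175). Gad1 had 127 counts in DSS replicate 2, 4 to 38 counts in the other 5 DSS libraries and 55 to 187 counts in Control. Nefl had 27 counts in DSS replicate 2, 1 to 9 counts in the other DSS libraries and 19 to 257 counts in Control. The summed level of the 8 neuron genes was 119 to 169 CPM in DSS libraries, with replicate 2 at 147 CPM, and 133 to 243 CPM in Control. In DSS replicate 2 this sum was 0.87-fold the median of the other libraries, so the list as a whole did not share the muscle excess there. The oligodendrocyte genes Mog and Opalin had 0 to 7 counts in every library. The part of brain RNA in the muscle differences was not tested.

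Lists of neighbouring tissues were read in the same way. With all 12 libraries 0 of 6 tested tendon genes, 0 of 4 cartilage genes, 0 of 6 peripheral nerve genes and 0 of 6 fibroblast genes were called by edgeR. Ibsp, a bone matrix gene, was lower in DSS at a log2 fold change of -1.06 (adjusted p 0.0416), 1 of 8 tested bone genes. Lpl, lipoprotein lipase, the 1 adipocyte gene tested, was lower at -0.67 (adjusted p 0.0154). Of all genes tested, 4.94% were called either way and 1.26% were called lower in DSS.

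The genes whose levels most resembled the mean log2 CPM of the 10 genes over the 12 libraries were Ttn, with a Pearson r of 0.971, and Neb, with 0.969, among 18583 candidates. The 12 nearest also held Shisa9 (0.954), Lrp1b (0.918), Ryr1 (0.918), Brsk1 (0.904), Agap2 (0.903), Mybpc2 (0.898), Mrps10 (0.896), Astn1 (0.894) and Adcy8 (0.893). Of these, Ttn, Neb, Ryr1 and Mybpc2 are muscle genes, and Lrp1b, Brsk1, Astn1 and Adcy8 are among those known from neurons. These values share the libraries and rest in large part on DSS replicate 2. Without it the 12 nearest genes were Rimbp2, Ttn, Sphk1, Snai2, Ak5, Hpcal4, Dgki, Neb, AI593442, Itga2, Pnmal2 and Lpar1, at r of 0.895 to 0.940, and Ttn and Neb were the 2 shared with the first list. Their r was then 0.926 for Ttn and 0.904 for Neb.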

How the data were processed

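Per the labels' protocols, the authors sequenced stranded total RNA libraries of mouse meninges. Per the submitters' processing notes, CASAVA, FastQC, Trim Galore, HISAT2 and featureCounts were used with build mm10; their versions, the annotation, the strand setting and the handling of multi-mapped reads were not given in the sources used here. The authors deposited gene counts for 12 mice, used for every main result, and a table of normalized signal values of unstated method, used in 1 alternative as log2(value + 1). Headings equal each sample's description, and 0 columns belonged to no sample. Counts were tested with edgeR 4.0.16 under R 4.3.3 (TMM scaling, a filterByExpr count minimum of 10 with 15 in total, glmQLFit, glmQLFTest, treatment only, Benjamini-Hochberg adjusted p under 0.05 over all tested genes). limma 3.58.1 and DESeq2 1.42.0 were alternatives. On simulated counts of 18306 genes for DSS against Control, the edgeR test recovered 69% of 100 genes changed 2-fold and 96% of 100 changed 4-fold, and called 8 of 18111 unchanged genes. The simulation set no single library apart as DSS replicate 2 was for the 10 genes, so these rates do not carry over to them. Myosin shares were compared by exact permutation over the 924 splits (scipy 1.17.1), whose smallest p is 0.00216. Coding sequences were aligned with mafft 7.526; lengths, coordinates and overlaps are from GENCODE M21 (GRCm38). Exact and Wilson intervals at 95%, and limits of 3 counts, cover counting error only. No 2 libraries of a group were duplicates (30 pairs, lowest chi-square per degree of freedom 20.3).

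The 10 genes and all lists were chosen with earlier results of these data known. Genes named were the 10, up to 4 of the highest mean CPM in each other muscle list and 2 in each other tissue list, a few preset myosin and lineage genes, and the 12 nearest by correlation, of which 1 is not reported here; others named, such as Gad1, Nefl, Neb, Cox8b and Myl7, were chosen after their values were seen. Replicates are separate mice per the series' design.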

Additional observations from a re-analysis of the deposited data

Results flagged for a closer look

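Within each group of 6 libraries, the gap between the most extreme library and its nearest neighbour was set against the group's whole range (Dixon's ratio, critical value 0.625), for 40 group-by-gene sets on the log2 CPM scale. Chance alone passes this limit in about 1 of 20 groups. Of the 15 sets that passed, 11 are DSS replicate 2 in genes that vary together, and some genes were chosen after their values were seen, so this number is not read against that rate. DSS replicate 2 stood apart above the other DSS libraries for Acta1 (5.20), Ckm (4.38), Myh1 (3.99), Myh4 (6.32), Tnnt3 (3.35), Tnni2 (2.64), Mylpf (2.46) and Atp2a1 (5.51), and for the mean log2 CPM of the 10 genes (3.88), Ttn (7.89) and Neb (4.65). Control replicate 3 stood apart below the other Control libraries for Tnni2 (-1.51), on 3 counts. Control replicate 2 stood apart above the other Control libraries for the heart genes Actc1 (1.23), Myl7 (1.98) and Tnnt2 (0.329). The reasons for these values were not tested.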

How the results depend on the processing

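With all 12 libraries, 0 of the 10 genes were called under edgeR with DESeq2 size factors, robust dispersion, no filter, a filter of CPM of at least 1 in 6 libraries (which kept 4 of the 10), library sizes without ribosomal RNA, limma-voom, limma-trend on the deposited normalized values, or DESeq2's Wald test, which gave no adjusted p for 7 of the 10. DESeq2 called 1558 genes in all, against 919 in the edgeR fit. Directions turned under limma-voom, limma-trend and the replicate block. In limma-voom the log2 fold changes were -1.46 for Acta1, -2.41 for Ckm, -0.87 for Myh1, -1.94 for Myh4, -0.14 for Tnnt3, -0.20 for Tnni2, -0.86 for Mylpf, -1.27 for Atp2a1 and -1.48 for Pvalb. In limma-trend they were -0.77 for Acta1, -1.37 for Ckm, -0.36 for Myh1, -0.46 for Myh4, -0.33 for Mylpf, -0.37 for Atp2a1 and -0.90 for Pvalb. With the replicate block they were -0.92 for Acta1, -1.48 for Ckm, -0.48 for Myh1, -0.51 for Myh4, -0.49 for Mylpf, -0.63 for Atp2a1 and -0.80 for Pvalb, and 708 genes were called, 0 of them among the 10. The labels do not say that equal numbers mark a pair, and the main fit assumed none. The deviations of same-numbered libraries correlated at 0.022, 0.005, -0.189, -0.083, 0.154 and -0.068. These were not set against differently numbered libraries, so they cannot settle whether same-numbered mice shared a cage or a preparation day. Leaving out each library in turn, genes called ranged from 538 to 1379 and the 10 genes called lower from 0 to 4, the 4 without DSS replicate 2; none was called higher. The log2 fold change ranged from -1.98 to 1.68 for Acta1, -2.64 to 1.91 for Ckm, -0.99 to 0.73 for Myh1, -2.36 to -0.44 for Myh2, -1.94 to 4.30 for Myh4, -0.37 to 0.91 for Tnnt3, -0.40 to 0.80 for Tnni2, -1.12 to 0.73 for Mylpf, -1.69 to 2.20 for Atp2a1 and -1.57 to 0.46 for Pvalb. The lowest of each came without DSS replicate 2; of 110 values without 1 of the other 11 libraries, 1 turned, Pvalb at -0.05 without Control replicate 1. Myh2 was at -0.44 without Control replicate 1. Without DSS replicate 2 and Control replicate 2 together, 4 of the 10 were called lower, at -1.89 for Acta1, -2.64 for Ckm, -1.05 for Myh1, -2.11 for Myh4, -0.20 for Tnnt3, -0.34 for Tnni2, -1.22 for Mylpf, -1.71 for Atp2a1 and -1.47 for Pvalb. Without DSS replicate 2 and Control replicate 1, a setting chosen after seeing the data, 1383 genes and 4 of the 10 were called, Myh4 did not pass the filter, and the values were -1.83 for Acta1, -2.40 for Ckm, -1.01 for Myh1, -1.68 for Myh2, -0.30 for Tnnt3, -0.27 for Tnni2, -1.14 for Mylpf, -1.29 for Atp2a1 and -1.80 for Pvalb. Leaving out each library, the myosin share difference ranged from -4.97 to 10.7 percentage points for Myh4, -3.71 to 7.05 for Myh1, -18.1 to -9.49 for Myh2 and -0.35 to 11.2 for Myh7; pooled counts gave 52.9 for Myh4. The list of 12 most alike genes shared 2 genes with that made without DSS replicate 2. The causes of these shifts were not tested. Depth limits the low genes: outside DSS replicate 2, the DSS values of Ckm, Myh2, Myh4 and Mylpf rest on fewer than 20 counts.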
